A study of Mus musculus with 19 samples.

Results

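Kupffer cells (KCs), the resident mφs of the liver, clear particles and dying cells from blood and degrade them in lysosomes. Described here are 38 genes for lysosomal hydrolases, the proteins that serve them and proteins of the lysosomal membrane, out of 19938 genes measured. They were chosen as a list of gene symbols for which the arrays held a probeset of that single symbol, and all 38 had exactly 1 such probeset. KCs of monocyte origin (mo-KCs) came from KC-DTR mice, a knock-in line whose Clec4f gene carries a cassette for a yellow fluorescent protein and the human diphtheria toxin receptor. These mice received 50 ng diphtheria toxin (DT), which kills cells that express the receptor, and the KCs that had refilled the liver were sorted at day 30 (5 arrays) or day 15 (3 arrays). KCs of embryonic origin (em-KCs) were on 11 arrays. They came from WT mice (3 arrays), untreated KC-DTR mice (3 arrays), an untreated WT littermate (1 array) and WT littermates 15 or 30 days after 50 ng DT (2 arrays each). The livers came from mice of 6 to 12 weeks of age. All cells were sorted through a gate that required Clec4F protein, so a cell without it was not collected, and mo-KCs and KC-DTR em-KCs carry the cassette while the other em-KCs do not. The question was whether mo-KCs come to match em-KCs.

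Lysosomes are acidic vesicles in which a proton pump, the V-ATPase, keeps the low pH that soluble hydrolases need to break down proteins, glycans and lipids. Most of these enzymes are tagged with mannose 6-phosphate in the Golgi and sorted to the lysosome, where glycosylated membrane proteins such as LAMP1 protect the limiting membrane. The transcription factor TFEB can raise many of these genes together through E-box motifs in their promoters, and loss of single enzymes causes lysosomal storage diseases in which mφs fill with undigested material.

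Each value is a log2 expression level after Robust Multi-array Average, and each gene was compared with itself across arrays. The 19 arrays fell into 2 sets by the mean of 3 measured Y-linked genes, which ran from 3.97 to 4.18 on 6 arrays (day 30 mo-KC replicates 3 to 5 and the 3 WT em-KC arrays) and from 7.33 to 7.83 on the other 13. The study used mice of both sexes. Neither the sex of each mouse nor an array batch is stated in the sources used here, so results are also given within these sets. Clec4f was at 10.66 to 12.29 in mo-KCs of day 30, 12.16 to 12.21 in those of day 15 and 12.17 to 12.67 in em-KCs. Precision is set by the number of arrays: over all genes, 95% confidence intervals of a difference from em-KCs reached a median of 0.21 to either side at day 30 and 0.25 at day 15.

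In day 30 mo-KCs 3 of the 38 lysosomal genes fell relative to em-KCs and none rose (limma, adjusted p under 0.05), while 0.787% of all genes were called, 0.492% as lower. The genes that fell were Ctsd (cathepsin D, the main aspartic protease of lysosomes), Grn (progranulin, a lysosomal glycoprotein) and Gaa (acid alpha-glucosidase, which degrades glycogen). The differences were small, at 1.27-fold for Ctsd, 1.26-fold for Grn and 1.35-fold for Gaa. The fitted difference was below 0 for 35 of the 38 (92.1%), against 55.0% of all genes. Their median was -0.18 on the log2 scale, against -0.02 over all genes. At an unadjusted p under 0.05, 18 of the 38 were lower and none higher, beside 6.89% of all genes lower. For 35 of the 38 (92.1%) the whole 95% confidence interval stayed inside 1.5-fold of em-KCs, as it did for 91.1% of all genes. As sorted cells were measured in bulk, fewer cells with a transcript and less of it per cell cannot be told apart.

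**Figure D1:**
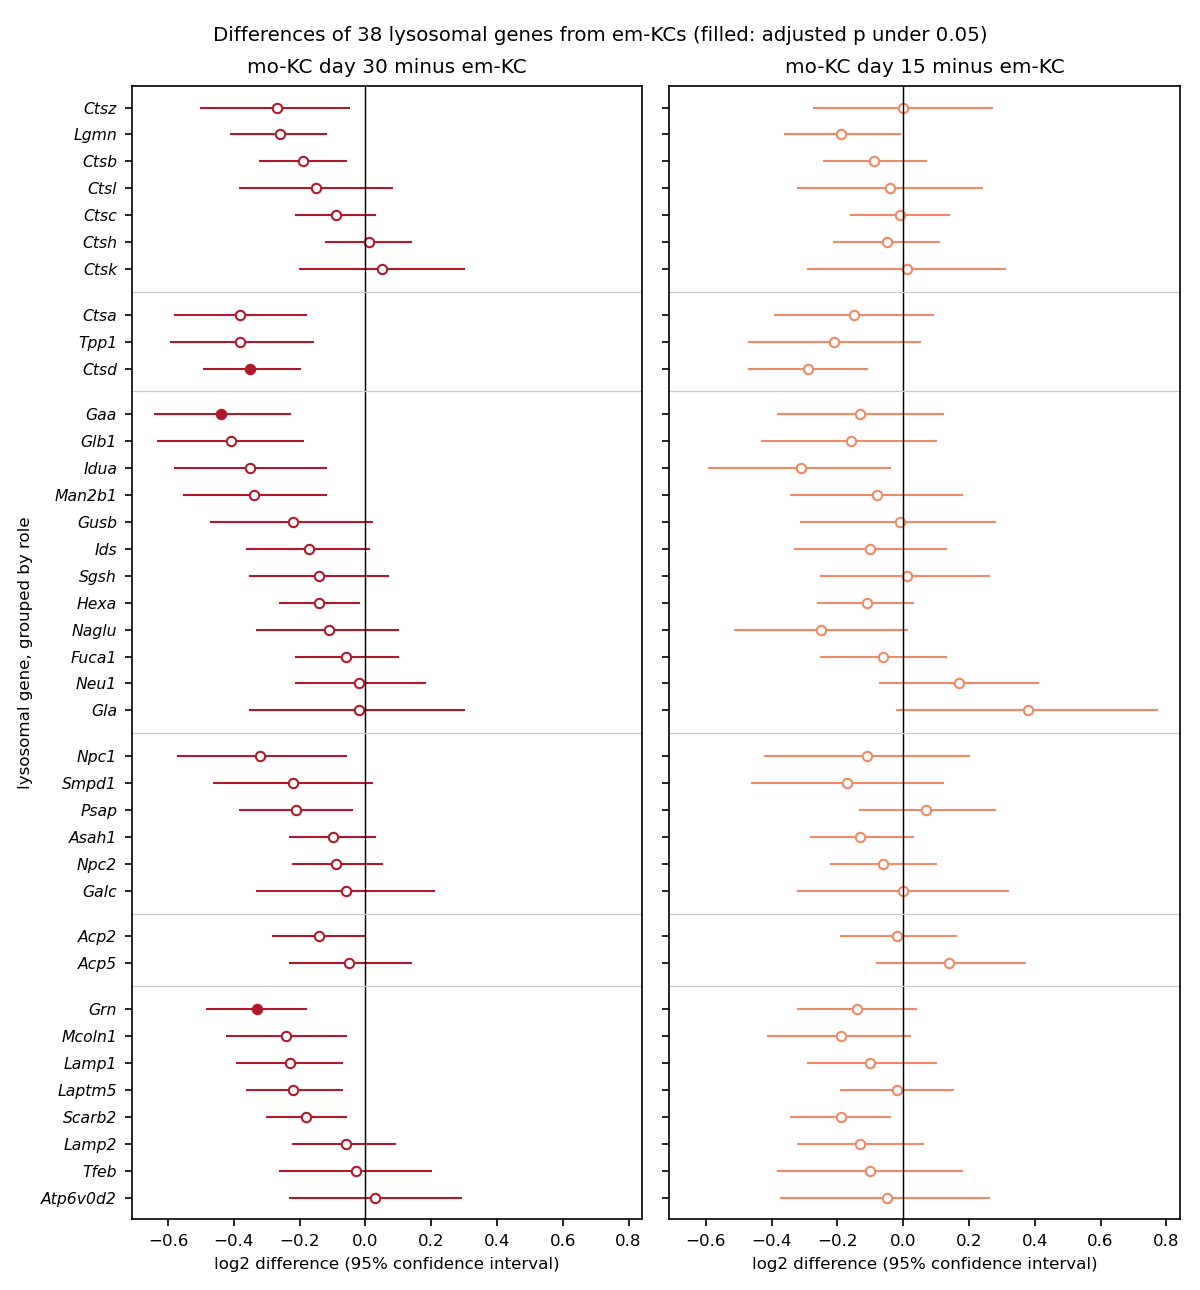
Log2 difference from em-KCs (horizontal axis, points with 95% confidence intervals) of the 38 lysosomal genes, grouped by role, in day 30 mo-KCs (left) and day 15 mo-KCs (right). At day 30, 35 points lie left of 0 and the 3 filled ones (Ctsd, Gaa and Grn) passed the test, while at day 15, 32 lie left of 0 and none passed.

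Among the proteases that are not cysteine proteases, Ctsd had 12.42, 12.57, 12.29, 12.28 and 12.14 in day 30 mo-KC replicates 1 to 5, against a range of 12.57 to 12.86 with a median of 12.64 in the 11 em-KC arrays. The highest day 30 array thus reached the lowest em-KC array to the second decimal and the other 4 lay below all em-KCs. The Ctsd difference was -0.35 (SE 0.07, adjusted p = 0.0157 from limma). Ctsa, which encodes cathepsin A (a carboxypeptidase that also stabilises beta-galactosidase and neuraminidase 1), had 11.91, 12.02, 11.44, 11.51 and 11.21 at day 30, against 11.93 to 12.13 with a median of 11.98 in em-KCs. Its replicates 3 to 5 lay clearly below em-KCs and replicate 2 within their range. The Ctsa difference of -0.38 (SE 0.10, adjusted p = 0.0677 from limma) missed the threshold. Tpp1, the tripeptidyl peptidase lost in a form of neuronal ceroid lipofuscinosis, showed the same layout. It had 10.39, 10.76, 10.16, 9.96 and 10.05 in day 30 mo-KCs, against 10.49 to 10.97 with a median of 10.61 in em-KCs, and its difference of -0.38 did not pass (adjusted p = 0.0998 from limma).

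The 7 cysteine proteases had differences of -0.27 to 0.05 at day 30 and none was called. Lgmn encodes legumain, an asparaginyl endopeptidase that processes other cathepsins. Its level was 12.27, 12.33, 12.12, 12.07 and 12.02 in day 30 mo-KCs, against 12.31 to 12.61 with a median of 12.39 in em-KCs (difference -0.26, adjusted p = 0.0893 from limma). Day 30 replicate 2 alone reached the em-KC range. Ctsz, a carboxypeptidase, was at -0.27, and Ctsb, Ctsl and Ctsc, the endopeptidases cathepsin B and L and the dipeptidyl peptidase cathepsin C, were at -0.19, -0.15 and -0.09. Ctsh, an aminopeptidase, and Ctsk, the collagen-degrading cathepsin of osteoclasts, were at 0.01 and 0.05. The probesets of Ctsk and of the V-ATPase subunit gene Atp6v0d2 were the only ones of the 38 with a mean under the dim-gene limit of 6.

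All 12 genes for glycosidases and sulfatases had a day 30 difference below 0, with a median of -0.16, and 1 of them passed. Gaa had 8.48, 8.81, 8.15, 8.29 and 8.13 in day 30 mo-KCs, against 8.57 to 9.10 with a median of 8.79 in em-KCs. Replicate 2 was near the em-KC median and the other 4 were below all em-KC arrays, and the difference was -0.44 (SE 0.10, adjusted p = 0.0365 from limma). Glb1 encodes beta-galactosidase, which cleaves GM1 ganglioside and keratan sulfate. It had 8.82, 8.88, 8.67, 8.12 and 8.24 at day 30, against 8.79 to 9.15 with a median of 8.99 in em-KCs (difference -0.41, adjusted p = 0.0758 from limma), so that replicates 1 and 2 overlapped em-KCs and replicates 3 to 5 did not. Idua encodes alpha-L-iduronidase, which degrades heparan and dermatan sulfate. It had 7.87, 8.03, 7.87, 7.66 and 7.80 in day 30 mo-KCs, against 7.89 to 8.83 with a median of 8.19 in em-KCs (difference -0.35, adjusted p = 0.155 from limma), with replicate 2 alone inside the em-KC range. Man2b1, the alpha-mannosidase of N-glycan breakdown, had 12.13, 12.24, 11.77, 11.63 and 11.44 at day 30, against 11.97 to 12.35 with a median of 12.21 in em-KCs, and replicates 1 and 2 lay inside the em-KC range (difference -0.34, adjusted p = 0.146 from limma). The other 8 genes of the group were at -0.22 to -0.02. They include Gusb (beta-glucuronidase), Hexa (the alpha subunit of beta-hexosaminidase) and the heparan sulfate enzymes Ids, Sgsh and Naglu, besides Fuca1 (alpha-fucosidase), Neu1 (a neuraminidase) and Gla (alpha-galactosidase A).

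The 6 genes of lipid breakdown and cholesterol transfer had differences of -0.32 to -0.06 at day 30 and none passed. Npc1, the membrane protein that passes cholesterol out of the lysosome, was at -0.32 and Npc2, the soluble protein that hands cholesterol to it, at -0.09. Smpd1 (acid sphingomyelinase) was at -0.22, Psap (prosaposin, the precursor of the saposins that help hydrolases reach sphingolipids) at -0.21, Asah1 (acid ceramidase) at -0.10 and Galc (galactosylceramidase) at -0.06. The acid phosphatases Acp2 and Acp5, the second of which is known as TRAP in osteoclasts, were at -0.14 and -0.05.

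In the group of membrane proteins, the proton pump, the ion channel, the regulator and progranulin, 7 of 8 differences were below 0 and Grn passed. Its level was 12.75, 12.84, 12.62, 12.54 and 12.34 in day 30 mo-KCs, against 12.86 to 13.06 with a median of 12.92 in em-KCs (difference -0.33, SE 0.07, adjusted p = 0.0253 from limma). Every day 30 array lay below every em-KC array for Grn, and this held for 1 other of the 38 genes, Scarb2, by less than the second decimal, beside 0.376% of all genes. Scarb2 encodes LIMP-2, the receptor that carries beta-glucocerebrosidase to lysosomes. It had 10.93, 10.99, 10.98, 10.83 and 10.91 at day 30, against 10.99 to 11.25 with a median of 11.09 in em-KCs, and the difference of -0.18 did not pass (adjusted p = 0.183 from limma). Lamp1, the most used marker of the lysosomal membrane, had 11.90, 11.94, 11.75, 11.80 and 11.63 at day 30, against 11.93 to 12.34 with a median of 11.98 in em-KCs (difference -0.23, adjusted p = 0.183 from limma). Only replicate 2 reached the em-KC range, near its low end. Mcoln1, the calcium channel TRPML1, had 8.37, 8.33, 7.80, 8.22 and 7.96 at day 30, against 8.21 to 8.57 with a median of 8.38 in em-KCs (difference -0.24, adjusted p = 0.226 from limma). Laptm5, a transmembrane protein of haematopoietic lysosomes, was at -0.22, Lamp2 at -0.06 and Atp6v0d2 at 0.03. The Tfeb transcript itself had 7.23, 7.34, 7.21, 7.19 and 6.85 in day 30 mo-KCs, against 6.99 to 7.88 with a median of 7.13 in em-KCs, and its difference was -0.03 with a 95% confidence interval of -0.26 to 0.20. At day 15 Tfeb had 7.03, 7.09 and 7.17 (difference -0.10), so that all 3 groups overlapped.

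**Figure D2:**
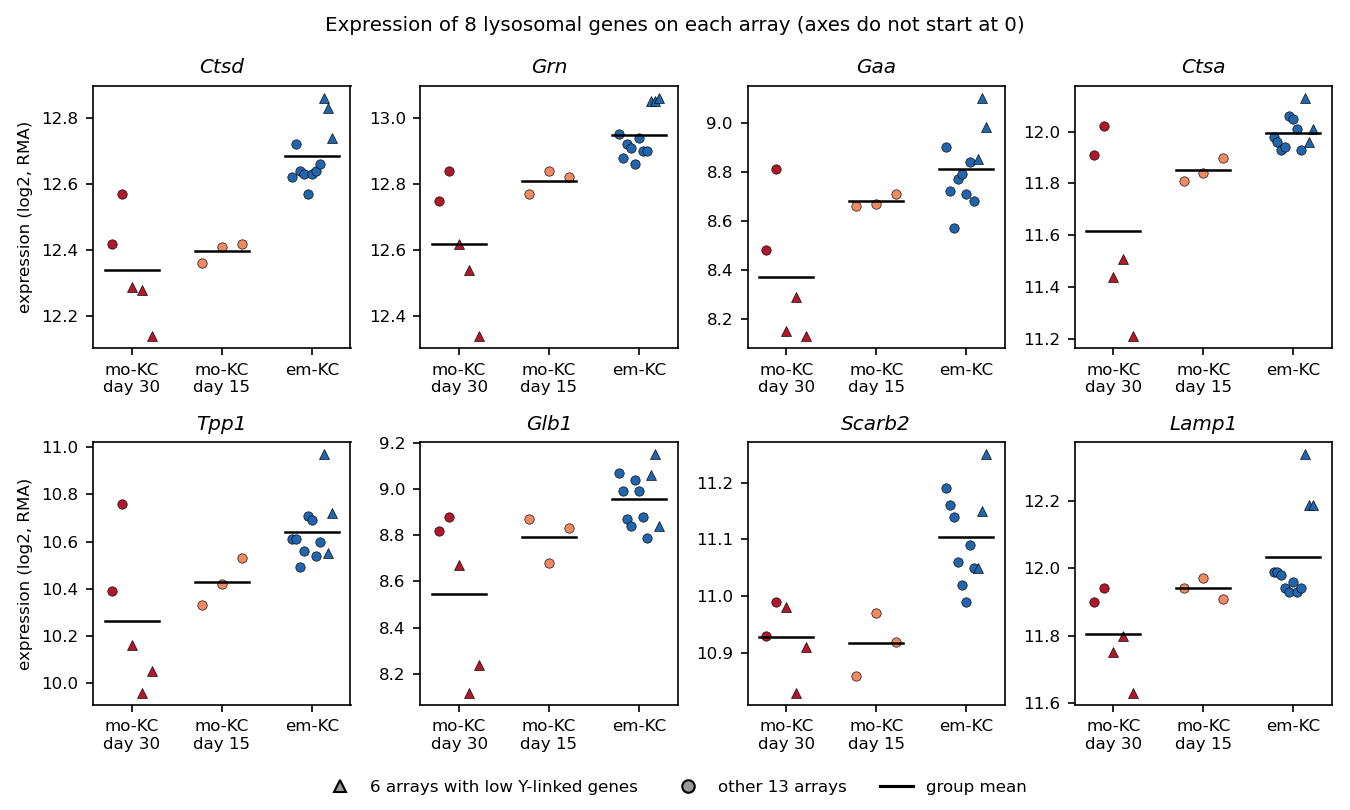
Log2 expression (vertical axes, which do not start at 0) of 8 lysosomal genes on each array in day 30 mo-KCs, day 15 mo-KCs and em-KCs, with lines at the group means and triangles for the 6 arrays with low Y-linked genes. For Ctsd, Ctsa, Tpp1, Gaa, Glb1, Lamp1 and Grn the 3 day 30 triangles are the lowest of the 19 points, and for Scarb2 the day 30 arrays of both symbols mix.

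The day 30 arrays did not act as 1 group. The mean of the 38 genes per array was 9.87, 9.87 and 9.78 in replicates 3, 4 and 5 and 10.04 and 10.10 in replicates 1 and 2, against 10.02 to 10.07 in day 15 mo-KCs and 10.07 to 10.18 in em-KCs. Replicates 3 to 5 thus lay below each of the other 16 arrays and replicates 1 and 2 did not, though replicate 1 was under the em-KC range. The average of replicates 1 and 2 was below the em-KC mean for 26 of the 38 genes, beside 52.7% of all genes. Both lay within the em-KC range for 22 of the 38 (57.9%), beside 74% of all genes. Gene by gene, all of replicates 3 to 5 lay below all other 16 arrays for 12 of the 38 genes (31.6%) and above them for none, beside 2.04% of all genes below and 2.27% above. These 12 were Ctsz, Lgmn, Ctsa, Ctsd, Tpp1, Glb1, Man2b1, Gaa, Psap, Lamp1, Laptm5 and Grn.

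**Figure D3:**
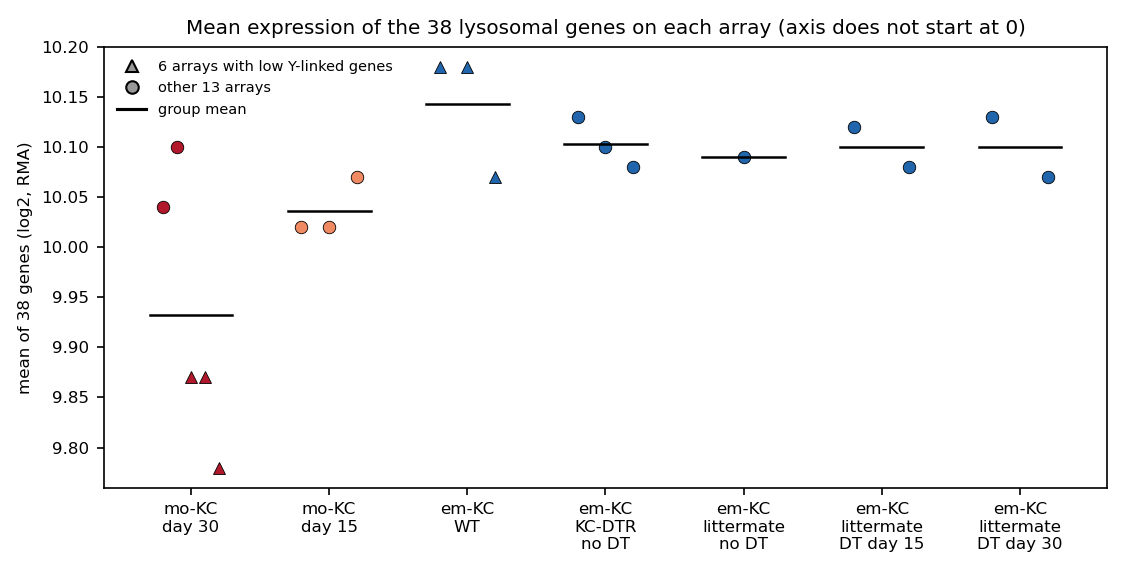
Mean log2 expression of the 38 lysosomal genes (vertical axis, which does not start at 0) on each of the 19 arrays by condition, with lines at the condition means and triangles for the 6 arrays with low Y-linked genes. The 3 triangles of day 30 mo-KCs lie at 9.78 to 9.87, and all other arrays lie between 10.02 and 10.18, with 2 WT em-KC triangles at the top.

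Among the 13 arrays in which Y-linked genes were high, none of the 38 genes was called by limma at day 30 (replicates 1 and 2 against 8 em-KC arrays), while 0.326% of all genes were. None had an unadjusted p under 0.05 there either, beside 6.86% of all genes. The differences there ran from -0.16 to 0.16 with a median of -0.03, and Ctsd, Grn and Gaa were at -0.14, -0.12 and -0.10 (adjusted p = 0.787, 0.848 and 0.939 from limma). Within the 6 arrays with low Y-linked genes (replicates 3 to 5 against the 3 WT em-KC arrays), 6 genes fell and none rose, beside 4.15% of all genes called. They were Gaa at -0.79, Tpp1 at -0.69, Ctsa at -0.65, Ctsd at -0.58, Grn at -0.55 and Lgmn at -0.51. The 38 differences ran from -0.79 to 0.32 with a median of -0.31 there. The difference between the sets was itself tested in 1 limma fit, which was chosen after seeing the data. It called 9 of the 38 genes, all with a lower difference in the 6 arrays, beside 4.72% of all genes. These 9 were Ctsa (-0.63, adjusted p = 0.00529), Psap (-0.58, adjusted p = 0.00476), Gaa, Lamp1, Lgmn, Tpp1, Ctsd, Grn and Laptm5. The em-KCs differ between the sets too, so a difference between the sets need not come from mo-KCs alone. Lamp1 averaged 12.24 in WT em-KCs and 11.96 in the other em-KCs. In replicates 3 to 5 it averaged 11.73, and in replicates 1 and 2 it averaged 11.92. For Ctsa these means were 12.03, 11.98, 11.39 and 11.96. With the set as a block over all 19 arrays, 4 of the 38 fell (Ctsd, Grn, Gaa and Lgmn), beside 2.58% of all genes called.

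Several marker lists moved with the same split of the day 30 arrays. Immediate-early genes respond quickly to stimuli. The mean of 12 of them was 7.84 to 8.50 in replicates 3 to 5 and 10.17 to 10.53 in replicates 1 and 2. It was 7.99 to 8.19 in WT em-KCs and 9.53 to 10.46 in the other em-KCs. The mean of 14 measured hepatocyte markers was 7.94 to 8.91 in replicates 3 to 5 and 7.25 to 7.29 in replicates 1 and 2. For these markers it was 9.85 to 9.94 in WT em-KCs and 7.68 to 8.64 in the other em-KCs. The mean of 12 KC markers was 10.97 to 11.09 in replicates 3 to 5 and 11.20 to 11.23 in replicates 1 and 2, against 11.52 to 11.69 in em-KCs. The mean of 11 markers of liver sinusoidal endothelium was 9.05 to 9.41 in replicates 3 to 5 and 9.74 to 9.86 in replicates 1 and 2, against 8.99 to 10.02 in em-KCs. That of 9 measured monocyte markers was 6.62 to 6.83 in replicates 3 to 5 and 6.43 to 6.45 in replicates 1 and 2, against 5.94 to 6.71 in em-KCs. Of single markers at day 30, 5 of 12 for KCs were lower and 1 of 9 for monocytes was higher, and no hepatocyte or immediate-early gene was called. With the immediate-early mean as a covariate 3 of the 38 genes were called, beside 1.33% of all genes, and with the hepatocyte mean 9 were, beside 3.5% of all genes. The part of the KC, endothelial and monocyte markers in the result was not tested.

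**Figure D4:**
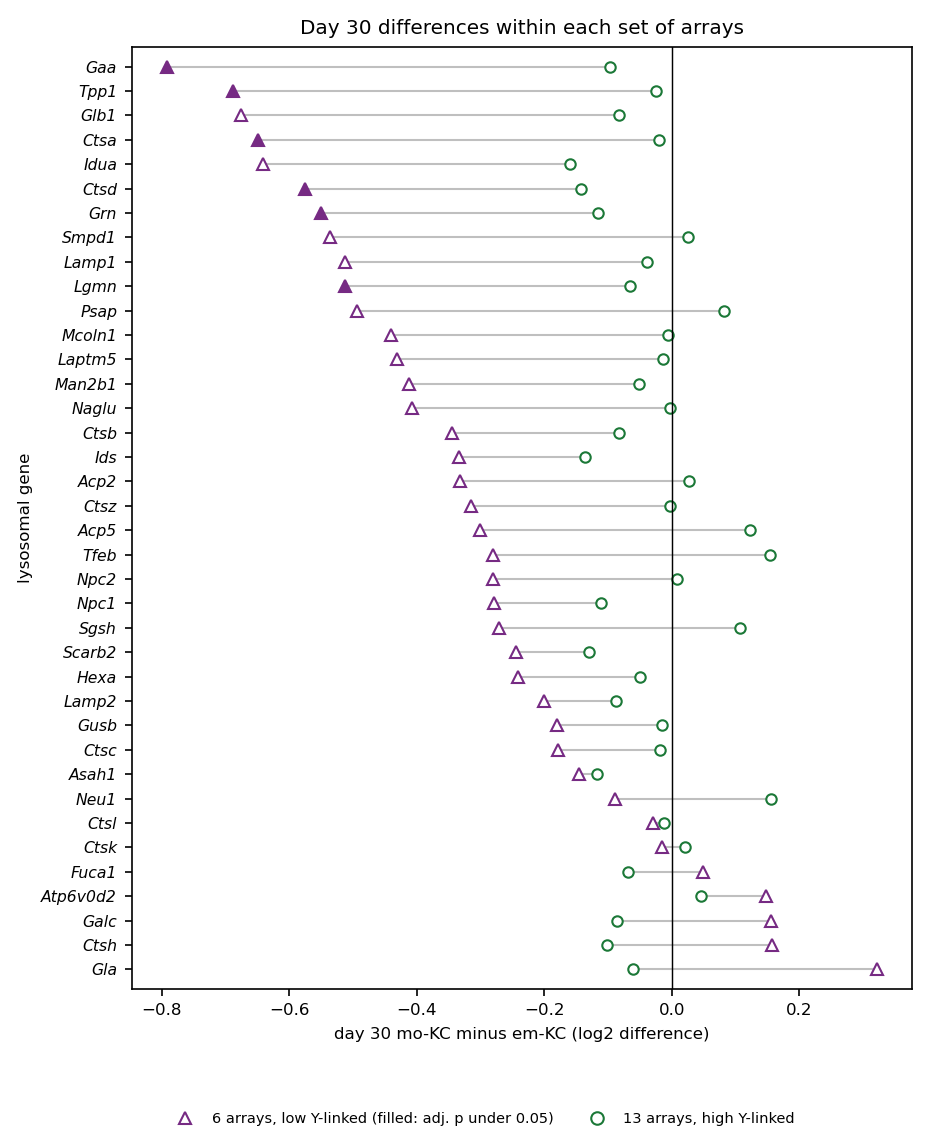
Log2 difference of day 30 mo-KCs from em-KCs (horizontal axis) for each of the 38 lysosomal genes, within the 6 arrays with low Y-linked genes (triangles) and within the other 13 arrays (circles). The triangles run from -0.79 to 0.32 and 6 filled ones passed the test, whereas the circles stay between -0.16 and 0.16 and none passed.

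At day 15 none of the 38 genes was called against em-KCs by limma, beside 0.502% of all genes, and 4 had an unadjusted p under 0.05, all lower, beside 3.04% of all genes lower. The differences ran from -0.31 to 0.38 with a median of -0.09 (-0.01 over all genes), and 32 of the 38 were below 0 (54.1% of all genes). The 95% confidence interval lay within 1.5-fold for 36 of the 38 (94.7%) and for 87.8% of all genes. For 5 genes all 3 day 15 arrays lay below all em-KC arrays (Lgmn, Ctsa, Ctsd, Scarb2 and Grn), beside 1.05% of all genes. Ctsd had 12.36, 12.41 and 12.42 in day 15 mo-KCs, against 12.57 to 12.86 in em-KCs, with a difference of -0.29 (SE 0.09, adjusted p = 0.225 from limma). Grn had 12.77, 12.84 and 12.82, against 12.86 to 13.06 in em-KCs (difference -0.14). Scarb2 had 10.86, 10.97 and 10.92, against 10.99 to 11.25 in em-KCs (difference -0.19). For Grn and Scarb2 the highest day 15 array sat just under the lowest em-KC array, while for Ctsd the groups lay further apart. The largest positive difference was that of Gla, with 8.98, 8.76 and 9.01 at day 15, against 7.77 to 9.10 with a median of 8.68 in em-KCs (0.38, SE 0.19, adjusted p = 0.852 from limma), and its groups overlapped. Idua had 7.81, 7.99 and 7.85 at day 15 (difference -0.31), and Naglu had 7.01, 7.01 and 7.19 (difference -0.25). Tpp1 had 10.33, 10.42 and 10.53 (difference -0.21), and Mcoln1 had 8.12, 8.20 and 8.23 (difference -0.19). At least 1 day 15 array of each of these 4 genes lay inside the em-KC range. Lgmn, with 12.25, 12.16 and 12.31, touched the lowest em-KC array to the second decimal (difference -0.19). Lamp1 had 11.94, 11.97 and 11.91 at day 15 (difference -0.10), at the low end of em-KCs. All day 15 arrays belong to the set of 13, and within that set again none of the 38 was called by limma, beside 1.16% of all genes. At an unadjusted p under 0.05 there were 5, beside 8.87% of all genes.

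Between the days, no lysosomal gene was called by limma in day 30 against day 15 mo-KCs, and 3 had an unadjusted p under 0.05, beside 5.06% of all genes. Over all genes 0.0201% were called after adjustment. The differences ran from -0.40 for Gla to 0.14 for Naglu with a median of -0.09. Gaa had the second lowest at -0.31, with 8.13 to 8.81 in day 30 mo-KCs against 8.66 to 8.71 in day 15 mo-KCs. Both days share the em-KC arrays, so their differences from em-KCs are not independent of each other.

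TFEB acts through a CACGTG core, and the RefSeq promoter entries of build GRCm38.p6 (250 bases before to 50 after a transcript start) were searched for these letters, which read the same on both strands. Of the 38 genes, 33 had an entry and 11 of these (33.3%) held CACGTG, compared with 9.5% of the 15614 tested genes with an entry. The 11 were Ctsl, Lgmn, Ctsa, Ctsd, Gla, Glb1, Naglu, Sgsh, Gaa, Lamp1 and Mcoln1. Ctsb, Ctsh, Asah1, Npc1 and Atp6v0d2 had no entry. Ctsa, Ctsd, Gla and Mcoln1 held 2 such cores and Lamp1 held 4. The sites of Ctsl, Gla and Sgsh are not shown, and the difference of Gla was -0.02 at day 30 and 0.38 at day 15. For the other 8 genes, 1 site each is shown on the strand of the gene. The core is in capitals, since these are the letters through which TFEB is known to act.
Ctsd: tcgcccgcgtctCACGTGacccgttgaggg
Gaa: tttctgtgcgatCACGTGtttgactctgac
Ctsa: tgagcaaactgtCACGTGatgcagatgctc
Glb1: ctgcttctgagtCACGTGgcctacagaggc
Lgmn: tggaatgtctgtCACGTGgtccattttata
Lamp1: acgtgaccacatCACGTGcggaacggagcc
Mcoln1: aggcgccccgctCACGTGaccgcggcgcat
Naglu: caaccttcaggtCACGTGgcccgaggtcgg
The Ctsd window lies at chr7:142387908-142387937 (minus strand), that of Gaa at chr11:119267811-119267840 (plus strand) and that of Lamp1 at chr8:13159134-13159163 (plus strand), where it is the last of 4 such cores before the start. The Ctsd core shown is centred 95 bases before the transcript start and its other core 242, that of Gaa 137 and that of Naglu 70. Genes with the core had a median difference of -0.24 at day 30 and -0.15 at day 15 (n = 11), and those with an entry but without it -0.16 and -0.06 (n = 22), with no test made. The ranges overlapped, at -0.44 to -0.02 with the core and -0.38 to 0.05 without it at day 30. At day 15 they were -0.29 to 0.38 with the core and -0.31 to 0.17 without it. The promoter entries of Grn and Scarb2 did not hold the core.

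Of 118 further lysosomal genes listed, 104 were measured. At day 30 1 of them fell and none rose, which is 0.962% beside 0.787% of all genes called. It was Hgsnat, the membrane enzyme that acetylates heparan sulfate, which averaged 9.37 ± 0.08 (SD, n = 5) in mo-KCs of day 30, against 9.85 ± 0.19 (SD, n = 11) in em-KCs (difference -0.48, adjusted p = 0.00906 from limma). The 28 other hydrolases, 16 V-ATPase subunits, 15 sorting proteins, 16 regulators of transcription and mTORC1 and 6 cystatins had no call at day 30. None of the 104 was called at day 15, beside 0.502% of all genes. The median difference of the 104 was -0.08 at day 30 and -0.04 at day 15. The mean of the other hydrolases was 8.62 to 8.73 in day 30 replicates 3 to 5. It was 8.80 to 8.82 in replicates 1 and 2 and 8.80 to 8.99 in em-KCs. That of the other membrane proteins was 8.39 to 8.45, 8.50 to 8.55 and 8.47 to 8.68 in these groups. Sorting proteins were at 7.97 to 8.07, 8.25 and 8.04 to 8.26. For V-ATPase subunits, regulators and cystatins, replicates 3 to 5 overlapped replicates 1 and 2.

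Em-KCs of WT mice were set against those of KC-DTR mice, both untreated. Of the 38 genes, 1 rose and 1 fell in WT em-KCs (limma), while 11.3% of all genes were called (4.94% higher and 6.36% lower). Gla, which removes terminal galactose from glycolipids and is lost in Fabry disease, had 7.77, 8.41 and 8.18 in WT em-KCs, against 8.70, 8.90 and 8.74 in KC-DTR em-KCs. The 3 WT arrays lay below the 3 KC-DTR arrays and the difference was -0.66 (SE 0.18, adjusted p = 0.0285 from limma). Naglu, a glucosaminidase of heparan sulfate breakdown, had 7.73, 7.77 and 7.34 in WT em-KCs, against 7.27, 7.17 and 7.20 in KC-DTR em-KCs (difference 0.40, SE 0.12, adjusted p = 0.041 from limma). Acp5 had 12.05, 11.80 and 11.73 in WT em-KCs, against 11.65, 11.53 and 11.30 in KC-DTR em-KCs, and just missed the threshold (0.37, adjusted p = 0.0505 from limma). The median of the 38 was 0.12, against 0.05 over all genes, and 27 differences were above 0. The other 11 (28.9%) were below 0, beside 42.5% of all genes. In mo-KCs of day 30, Gla had 8.70, 8.58, 8.52, 8.49 and 8.31 and Naglu 7.09, 7.33, 7.24, 7.32 and 7.06, above all WT em-KC arrays for Gla in 4 of 5 and below them for Naglu in 5 of 5. The littermate em-KCs lay between 8.26 and 9.10 for Gla and between 7.11 and 7.31 for Naglu, so Naglu was higher in each WT array than in any other em-KC array.

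**Figure D5:**
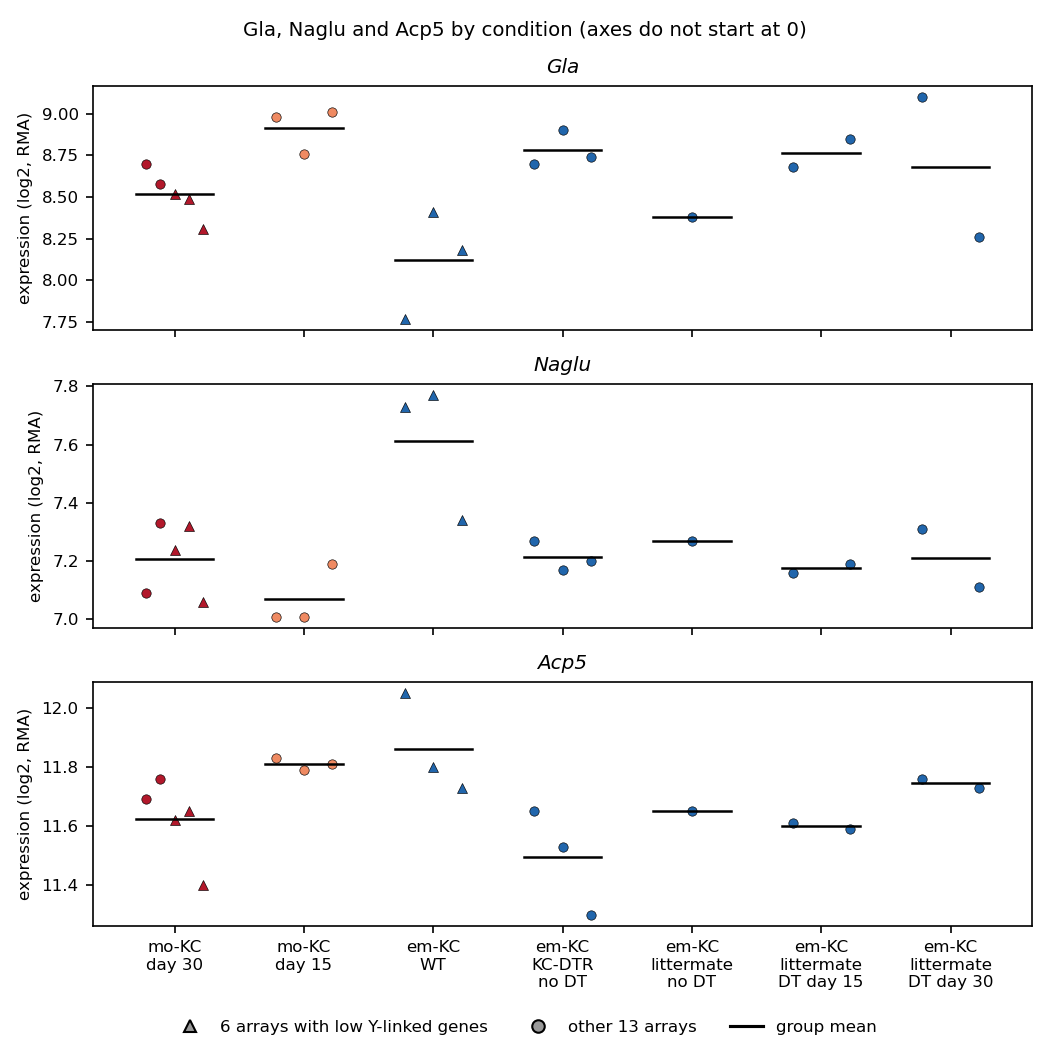
Log2 expression (vertical axes, which do not start at 0) of Gla, Naglu and Acp5 on each array by condition, with lines at the condition means and triangles for the 6 arrays with low Y-linked genes. WT em-KC arrays have the lowest mean for Gla (8.12) and the highest for Naglu (7.61) and Acp5 (11.86).

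The WT em-KC arrays all belong to the set of 6 and the KC-DTR em-KC arrays to the set of 13. The mouse line and the array set, with any difference of sex or batch that goes with the set, thus cannot be told apart. The hepatocyte mean was 9.85 to 9.94 in WT em-KCs and 7.68 to 8.15 in KC-DTR em-KCs, with 14 of 14 markers higher in WT, and the immediate-early mean was 7.99 to 8.19 in WT em-KCs and 9.99 to 10.46 in KC-DTR em-KCs, with 9 of 12 genes lower in WT. With the hepatocyte mean as a covariate none of the 38 was called, and the share of all genes called in that fit was 1%. Of the 104 further genes, 5 were higher and 7 lower in WT em-KCs, which is 11.5% of them beside the 11.3% of all genes. Among V-ATPase subunits 4 of 16 were lower, with Atp6v1h at -0.65, Atp6v1c1 at -0.61 and Atp6ap2 at -0.54 (adjusted p = 0.00123, 0.00656 and 0.00537 from limma), and 1 was higher. Among other hydrolases and activators 3 of 28 were higher and 1 was lower, with Ppt2 (a thioesterase) at 0.58, Gm2a (the GM2 activator) at 0.54 and Sumf1 (which activates sulfatases) at -0.51. Of 16 regulators Lamtor1, which anchors mTORC1 signalling to the lysosome, was higher at 0.97, and Mitf (a relative of TFEB) and Rragc were lower at -0.54 and -0.49.

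The cassette was addressed within the colony, but not apart from DT, which most littermates had received. In untreated KC-DTR em-KCs against WT littermate em-KCs none of the 38 was called by limma, and 0% of all genes were. The littermate conditions (untreated, day 15 and day 30 after DT) had equal weight there, whatever their number of arrays. None of the 38 had an unadjusted p under 0.05, beside 3.78% of all genes. The differences ran from -0.19 to 0.30 with a median of 0.02. The 95% confidence interval lay within 1.5-fold for 37 of the 38 and for 88.7% of all genes. The mean of the 38 genes was 10.08 to 10.13 in KC-DTR em-KCs and 10.07 to 10.13 in littermate em-KCs, of which 4 arrays came after DT and 1 did not. With these 3 KC-DTR em-KC arrays alone as the comparison, the genotype shared by mo-KCs, none of the 38 was called by limma at day 30 or day 15 (0.316% and 0.321% of all genes). At an unadjusted p under 0.05 there were 11 at day 30 and 4 at day 15, beside 9.07% and 5.3% of all genes, and the medians were -0.18 and -0.07.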

How the data were processed

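RNA of sorted KCs was measured on Affymetrix Mouse Gene 1.0 ST arrays, 1 array per sample, and arrays of 1 group are labelled as biological replicates. The authors deposited log2 values made by Robust Multi-array Average, which corrects the background and equalises the distributions of the arrays, so a shift common to most genes is removed. No software version or probe genome build is given in the sources used here. Of 35556 probesets, those with 1 gene symbol were kept (21789), and the one with the highest mean stood for each of 19938 genes.

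The 3 groups were fitted together with limma 3.58.1 in R 4.3.3 (lmFit and eBayes), and comparisons among em-KCs in a fit of 7 conditions. Tests were two-sided, and a gene was called at an adjusted p under 0.05 (Benjamini-Hochberg, all genes). The fit was tested on simulated data. The genes, roles, lists, tests and alternatives were chosen with earlier results of these data known. Values are given in full for genes called in any comparison, for the 8 with the largest difference at each day, and for Tfeb and Lamp1. Acp5, Psap and the genes of the array-set comparison were added after their values were seen. Alternatives covered the em-KC arrays, probesets, dim genes, variance, centring, the methods' t-test, the replicate block, array sets, covariates and each array left out. No pair among 171 pairs of arrays was identical.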

Additional observations from a re-analysis of the deposited data

Results flagged for a closer look

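The day 30 difference from em-KCs was lower in the 6 arrays with low Y-linked genes than in the other arrays for 9 of the 38 genes, by a limma test of the difference itself (4.72% of all genes called). The gap on the log2 scale was -0.69 for Gaa, -0.66 for Tpp1, -0.63 for Ctsa, -0.58 for Psap and -0.47 for Lamp1. It was -0.45 for Lgmn, -0.43 for Ctsd, -0.43 for Grn and -0.42 for Laptm5. This comparison was chosen after seeing the data, and it sets replicates 3 to 5 against WT em-KCs and replicates 1 and 2 against em-KCs of the KC-DTR colony, so the line of the em-KCs differs between the sets too.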

How the results depend on the processing

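The count of lysosomal genes called at day 30 (3, with 157 of all genes called) rested on mo-KC replicates 3 to 5. It was 0 without replicate 3, 4 or 5 (93, 93 and 98 of all genes), 5 without replicate 1 (305) and 8 without replicate 2 (316), a range of 0 to 8 over all arrays left out. It was 1 with em-KCs of the KC-DTR colony (Ctsd; 213 of all genes) and with 7 conditions as groups (170), 0 with em-KCs of untreated KC-DTR mice (63) and within the 13 arrays (65), 6 within the 6 arrays (827), 5 with trended and robust variance (169) and 9 with the hepatocyte covariate (698). It was 2 with the methods' t-test (84 of all genes; 20 of the 38 before adjustment, beside 11.9% of all genes). The median of -0.18 was -0.03 within the 13 arrays and -0.31 within the 6, and stayed between -0.20 and -0.14 in the others but the replicate block. Under the replicate block the count was 0 (49 of all genes) and the median -0.11. Replicates 4 and 5 exist at day 30 alone and drop out of that fit. Same-numbered arrays of different conditions were correlated after each gene's condition mean was subtracted. These residuals correlated at -0.12 to 0.15 (over 0.1 in 5 of 36 pairs), so the numbers do not pair samples. At day 15 and between the days the replicate block left the count at 0. It was not run for the comparisons among em-KCs. Counts at day 15, between the days and between KC-DTR and littermate em-KCs were 0 in every alternative run.

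The count between WT and KC-DTR em-KCs (2, with 2253 of all genes called) was 5 with trended and robust variance (2206), 0 with the hepatocyte covariate (200) and 0 to 3 with an array left out (0 without KC-DTR replicate 2 or 3 or WT replicate 1). The day 30 difference of Tfeb (-0.03) was 0.04 with em-KCs of the KC-DTR colony, 0.06 with those of untreated KC-DTR mice, 0.07 under the replicate block, 0.15 within the 13 arrays and -0.07 to 0.05 with an array left out. That of Gla (-0.02) was 0.07 under the replicate block, 0.12 with the set as a block, 0.32 within the 6 arrays, 0.08 with the immediate-early covariate and -0.10 to 0.03 with an array left out. Neither passed the test in any of these. The causes were not tested.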
